A study of Macaca mulatta with 24 samples.

Results

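The nuclear-encoded genes of the mitochondrial respiratory chain were followed in the ileum of rhesus macaques after total-body irradiation (TBI). They were listed by name, with earlier results of these data known, as every gene whose symbol in the deposited normalized table began with NDUFA, NDUFB, NDUFC, NDUFS, NDUFV, UQCR, COX4, COX5, COX6, COX7, COX8 or ATP5, or was SDHA, SDHB, SDHC, SDHD, CYC1 or CYCS. This gave 69 genes of the 16094 gene symbols in that table. Whole full-thickness ileum of 24 young adult males was measured on one-colour Agilent arrays, 1 animal per array, without pooling. The control group was 4 unirradiated (sham) animals killed on day 4, and these animals served as the controls for both doses and all days. The irradiated animals had received one uniform exposure to cobalt-60 gamma rays, at 6.7 Gy or 7.4 Gy. Each dose had 4 animals killed on day 4, another 4 on day 7 and 2 on day 12, and no other treatment or genotype was named. The question the design puts to these genes was whether their mRNA differed from unirradiated ileum, and on which day and at which dose.

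The respiratory chain sits in the inner mitochondrial membrane. Complexes I and II take electrons from NADH and succinate, complex III passes them through cytochrome c to complex IV, which reduces oxygen, and the proton gradient that builds up drives ATP synthase. The subunits of complex II and cytochrome c are all nuclear-encoded, while complexes I, III, IV and ATP synthase mix subunits from the nucleus and from mitochondrial DNA. Absorptive enterocytes and smooth muscle both depend on this chain, and the crypt cells from which the epithelium is renewed are known to be radiosensitive.

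Of the 69 genes, 24 encoded subunits of complex I, 3 of complex II, 8 of complex III, 14 of complex IV and 12 of ATP synthase, and CYCS encoded cytochrome c. NDUFA4 and NDUFA4L2 were counted with complex IV, where NDUFA4 is now placed. A further 5 genes were complex I assembly factors (NDUFAF2 to NDUFAF6), and 2 symbols matched by prefix only, COX4NB (now EMC8, a membrane protein insertion factor) and ATP5SL (now DMAC2). The genes had 129 probes, 44 genes had more than 1, and each gene was represented by its brightest probe over all arrays. The exception to testing was NDUFA5, whose probes were well above background on only 1 or 2 arrays, so 68 genes were tested. For 67 of the 68 the probe was well above background on all 24 arrays. SDHA, NDUFS1, NDUFS7, NDUFV1, COX5B, COX6A1, COX7A2 and ATP5C1 had no probe under those symbols and were not analysed here.

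A level below is the log2 intensity of a probe minus the 75th percentile of its array, so a level of 0 is the 75th percentile itself. Mean levels ranged from -5.06 to 7.25 and 54 of the 68 genes had a mean above 3. Probe brightness also depends on the probe, so levels were compared between animals and never between genes. A difference is a difference of 2 group mean levels on this log2 scale, with its standard error (SE), and it passed when the limma p-value adjusted by the Benjamini-Hochberg method over all 36108 tested probes was under 0.05. A gene was called altered when it passed and differed by at least 2-fold.

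Facts of the arrays touch each result below. The share of probes well above background ran from 72.7% to 88.1% over the 24 arrays, with 83.2% to 88.1% in controls, 72.7% to 87.3% on day 4 after 6.7 Gy and 76.1% to 86.8% on day 4 after 7.4 Gy. The arrays lay on 6 slides scanned on 2 days. All 4 controls were on the first scan day and at the same position of their slides, and so position and group could be separated only partly. The ileal markers FABP6 (the bile acid binding protein of ileal enterocytes) and SLC10A2 (the apical bile acid transporter) were well above background on all 4 control arrays, while FABP2 was so on 1 of 4.

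On day 4 after 7.4 Gy the respiratory chain genes were lower than in controls almost throughout. Of 68 genes, 60 had a lower mean and 8 a higher mean, the median difference was -0.36, and 18 genes fell past the test while 0 rose. The smallest adjusted p was 0.0066. Over all tested probes the median difference was -0.07, 3.1% passed lower and 3.55% passed higher. Among the 3029 probes with a mean level above 3, as bright as most of these genes, the median was -0.10, 219 passed lower, 62 passed higher, and 460 had every irradiated animal below every control. No respiratory chain gene was altered by 2-fold, against 2.33% of all tested probes. At an unadjusted p under 0.05 the count was 42 lower and 0 higher, where the share of all probes was 12.5% lower. For 36 of the 68 genes every animal of the day-4 group lay below every control, which held for 7.91% of all tested probes.

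**Figure D1:**
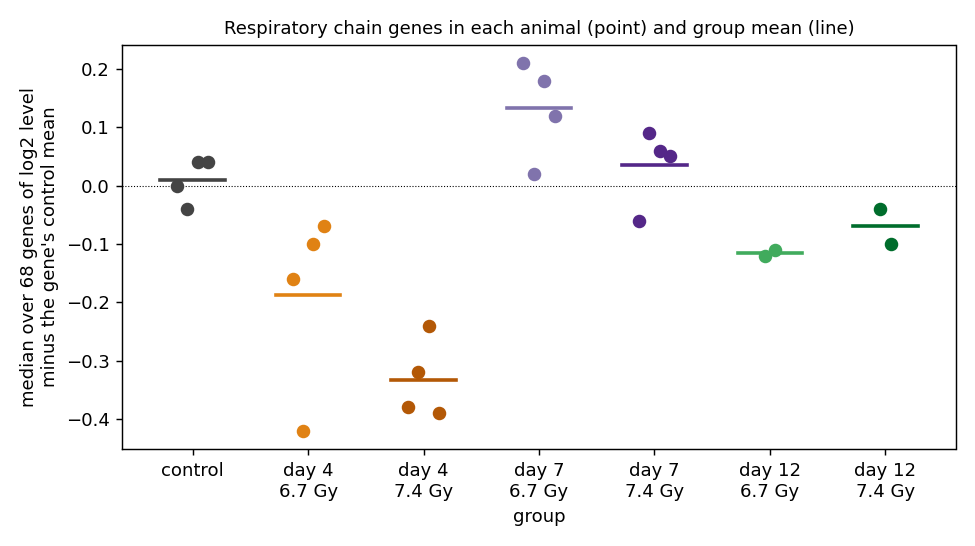
Each point is 1 animal and gives the median over the 68 tested genes of the log2 level minus the mean of the controls for that gene; the line is the mean of the group. The 4 animals of day 4 after 7.4 Gy lay between -0.39 and -0.24, all below the controls (-0.04 to 0.04), and the day-7 animals lay between -0.06 and 0.21.

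The same displacement was seen in single animals. The median over the 68 genes, taken against the control mean of each gene, was 0, -0.04, 0.04 and 0.04 in the 4 controls and -0.38, -0.32, -0.24 and -0.39 on day 4 after 7.4 Gy. It was -0.16, -0.42, -0.10 and -0.07 on day 4 after 6.7 Gy, so that the animals of both day-4 groups lay below the 4 controls, and 1 animal of the lower dose lay lowest of all 24. The array of that animal had 83.9% of probes above background, and the lowest share, 72.7%, belonged to the animal at -0.16. The part of this share in the result was not tested. In ileum as a whole, fewer cells of a type rich in these mRNAs and less of the mRNA in each cell cannot be told apart.

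All 23 tested genes of complex I, which oxidizes NADH, had a lower mean on day 4 after 7.4 Gy, with a median of -0.30, and 4 passed. These were NDUFA12, NDUFB10, NDUFC1 and NDUFA1, accessory subunits that surround the catalytic core. NDUFB10, of the membrane arm, had levels of 6.08, 6.09, 6.36 and 6.24 in controls and 5.75, 5.56, 5.72 and 5.71 on day 4 after 7.4 Gy. The groups did not overlap, and the difference was -0.51 (SE 0.10, adjusted p = 0.0066), while its second probe gave -0.41 (adjusted p = 0.079). NDUFA1, also of the membrane arm, stood at 5.49, 5.44, 5.49 and 5.46 in controls and at 4.89, 5.32, 5.08 and 4.93 in this group. Again no animal reached the controls, with a difference of -0.41 (SE 0.12, adjusted p = 0.049), and its 3 other probes gave -0.53, -0.67 and -0.55. NDUFA12 differed by -0.60 (SE 0.16, adjusted p = 0.03) and NDUFC1 by -0.43 (SE 0.11, adjusted p = 0.024). The core subunits NDUFS8 and NDUFV2, which carry iron-sulfur clusters, had differences of -0.14 and -0.12, and neither passed (adjusted p = 0.65 and 0.61). Second probes gave 0.09 for NDUFS8 and -0.43 (adjusted p = 0.29) for NDUFV2. NDUFB4, an accessory subunit, stood at 4.61, 4.35, 4.51 and 4.53 in controls and at 4.51, 4.27, 4.64 and 4.55 after 7.4 Gy. Its difference was -0.01 and the groups overlapped over their whole range.

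Complex II links the chain to the citric acid cycle by oxidizing succinate. Its iron-sulfur subunit SDHB had levels of 4.27, 4.45, 4.41 and 4.26 in controls and 3.31, 3.94, 3.71 and 3.91 on day 4 after 7.4 Gy, with no overlap (-0.63, SE 0.14, adjusted p = 0.011), and its second probe gave -0.60 without passing (adjusted p = 0.58). SDHD, a membrane anchor, stood at 3.89, 3.62, 3.48 and 3.73 in controls and at 2.78, 3.16, 3.11 and 3.12 in irradiated animals, again without overlap (-0.64, SE 0.13, adjusted p = 0.0097), and its other probe gave -0.70 (adjusted p = 0.0051). Both SDHD probes were designed to a transcript that RefSeq lists under another locus of the macaque genome, so a near-identical copy may share this signal. SDHC is the other anchor. The levels of its brightest probe were 0.77, 0.97, 0.65 and 0.81 in controls and 0.69, 0.90, 0.93 and 0.89 after 7.4 Gy. These ranges overlapped, and the difference of 0.05 did not pass. Its other probes were lower by means of -0.15 and -0.22, also without passing, and the second of these rose from day 4 to day 7 after 7.4 Gy (0.46, adjusted p = 0.043).

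All 8 genes of complex III, which moves electrons from ubiquinol to cytochrome c, were lower, with a median of -0.43. UQCRC1, a core structural protein of the complex, had levels of 6.24, 6.21, 6.57 and 6.32 in controls and 5.77, 5.76, 5.86 and 5.73 on day 4 after 7.4 Gy. No animals overlapped and the difference was -0.55 (SE 0.13, adjusted p = 0.016), but its second probe gave -0.22 (adjusted p = 0.4). UQCR, the small subunit now named UQCR11, differed by -0.50 (SE 0.13, adjusted p = 0.028), with -0.46 (adjusted p = 0.051) and -0.17 (adjusted p = 0.57) from its other probes. The other 6 did not pass. UQCRC2 (-0.45), UQCRH (-0.43), the Rieske iron-sulfur protein UQCRFS1 (-0.42) and cytochrome c1, CYC1 (-0.41), had adjusted p-values of 0.094, 0.13, 0.086 and 0.12.

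Cytochrome c, CYCS, shuttles electrons from complex III to complex IV and triggers apoptosome assembly when it leaves the mitochondrion. Its levels were 5.69, 5, 5.02 and 5.31 in controls and 4.89, 4.54, 4.54 and 4.73 on day 4 after 7.4 Gy. On day 4 after 6.7 Gy they were 4.56, 3.98, 4.54 and 4.89. The irradiated animals of both day-4 groups lay below the controls, yet the differences of -0.58 (SE 0.22, adjusted p = 0.11) and -0.76 (SE 0.22, adjusted p = 0.064) did not pass. A second CYCS probe gave -0.22 (adjusted p = 0.5) at 7.4 Gy and -0.76 (adjusted p = 0.033) at 6.7 Gy, so the call at the lower dose depended on the probe.

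Complex IV divided into 8 genes with a lower mean and 6 with a higher mean, and its median was -0.44. The 5 that passed, all lower, were the generally expressed subunits COX5A, COX7C, COX6B1, COX7B and COX4I1. COX4I1, a regulatory subunit, had levels of 7.29, 7.19, 7.47 and 7.19 in controls and 6.74, 6.77, 6.94 and 6.62 on day 4 after 7.4 Gy, without overlap. The difference was -0.52 (SE 0.12, adjusted p = 0.014) and its 2 other probes gave -0.66 and -0.67. COX5A stood at 5.19, 5.14, 5.10 and 5.01 in controls and at 4.37, 4.56, 4.62 and 4.33 in irradiated animals (-0.64, SE 0.15, adjusted p = 0.016). COX6B1, which faces the intermembrane space, stood at 6.79, 6.62, 6.99 and 6.86 against 6.04, 6.41, 6.29 and 6.05 (-0.62, SE 0.17, adjusted p = 0.033). In each of these genes the lowest control lay above the highest irradiated animal. COX7B differed by -0.58 (SE 0.13, adjusted p = 0.011), from 5.52, 5.24, 5.59 and 5.67 in controls to 4.84, 4.88, 5.01 and 4.96. COX7C stood at 4.32, 4.50, 4.56 and 4.55 in controls and at 3.91, 3.88, 3.73 and 3.89 in this group (-0.63, SE 0.13, adjusted p = 0.0073), also without overlap. Its second probe gave 0.16 (adjusted p = 0.82), and the transcript behind the first is listed by RefSeq under another locus, so the COX7C value belongs to that probe. COX8A, COX7AH (now COX7A1, the muscle isoform) and COX6C were lower by means of -0.46, -0.48 and -0.42 and did not pass.

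The 6 genes of complex IV with a higher mean were COX4I2 (0.34), an isoform of subunit 4 known from lung and hypoxia, NDUFA4L2 (0.28), a hypoxia-induced relative of NDUFA4, COX6A2 (0.19), the heart and muscle isoform, COX6B2 (0.18), the testis isoform, COX7A2L (0.19), a supercomplex assembly factor, and NDUFA4 itself (0.14). None passed, and the smallest adjusted p among the 6 was 0.32. COX4I2 and NDUFA4L2 had dim probes, with mean levels of -5.06 and -4.35. COX6A2 and COX6B2 had mean levels of 0.53 and -0.27, and their probes were well above background on all 24 arrays. NDUFA4 had levels of 4.13, 4.05, 3.99 and 4.18 in controls and 4.35, 4.2, 4.31 and 4.07 after 7.4 Gy, and its other probe gave -0.03. COX4I2 had levels of -5.62, -4.84, -4.94 and -4.92 in controls and -4.49, -4.59, -5.25 and -4.63 in irradiated animals. Both genes overlapped between the groups.

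All 12 genes of ATP synthase were lower, with a median of -0.41, and 5 passed. ATP5B, the catalytic beta subunit (now ATP5F1B), had levels of 7.22, 7.05, 7.22 and 7.05 in controls and 6.61, 6.16, 6.39 and 6.62 on day 4 after 7.4 Gy. No animals overlapped, and the difference of -0.69 (SE 0.15, adjusted p = 0.013) was the largest fall among the 68 genes, 1.61-fold. ATP5G3, 1 of 3 genes for subunit c, the proton-carrying ring of the enzyme, stood at 6.68, 6.54, 6.58 and 6.65 against 6.09, 6.08, 6.04 and 5.91 (-0.58, SE 0.16, adjusted p = 0.032). The same subunit is encoded by ATP5G2, which differed by -0.46 (SE 0.13, adjusted p = 0.04) with overlapping animals, and by ATP5G1, which differed by -0.16 and did not pass (adjusted p = 0.47). The other ATP5G1 probes gave -0.33 and -0.39, also without passing, and both rose from day 4 to day 7 after 7.4 Gy (0.65, adjusted p = 0.018, and 0.61, adjusted p = 0.026). ATP5O, of the peripheral stalk, and ATP5E, of the central stalk, differed by -0.45 (SE 0.12, adjusted p = 0.026) and -0.43 (SE 0.11, adjusted p = 0.029). ATP5A1, the alpha subunit, differed by -0.43 and did not pass (adjusted p = 0.16).

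**Figure D2:**
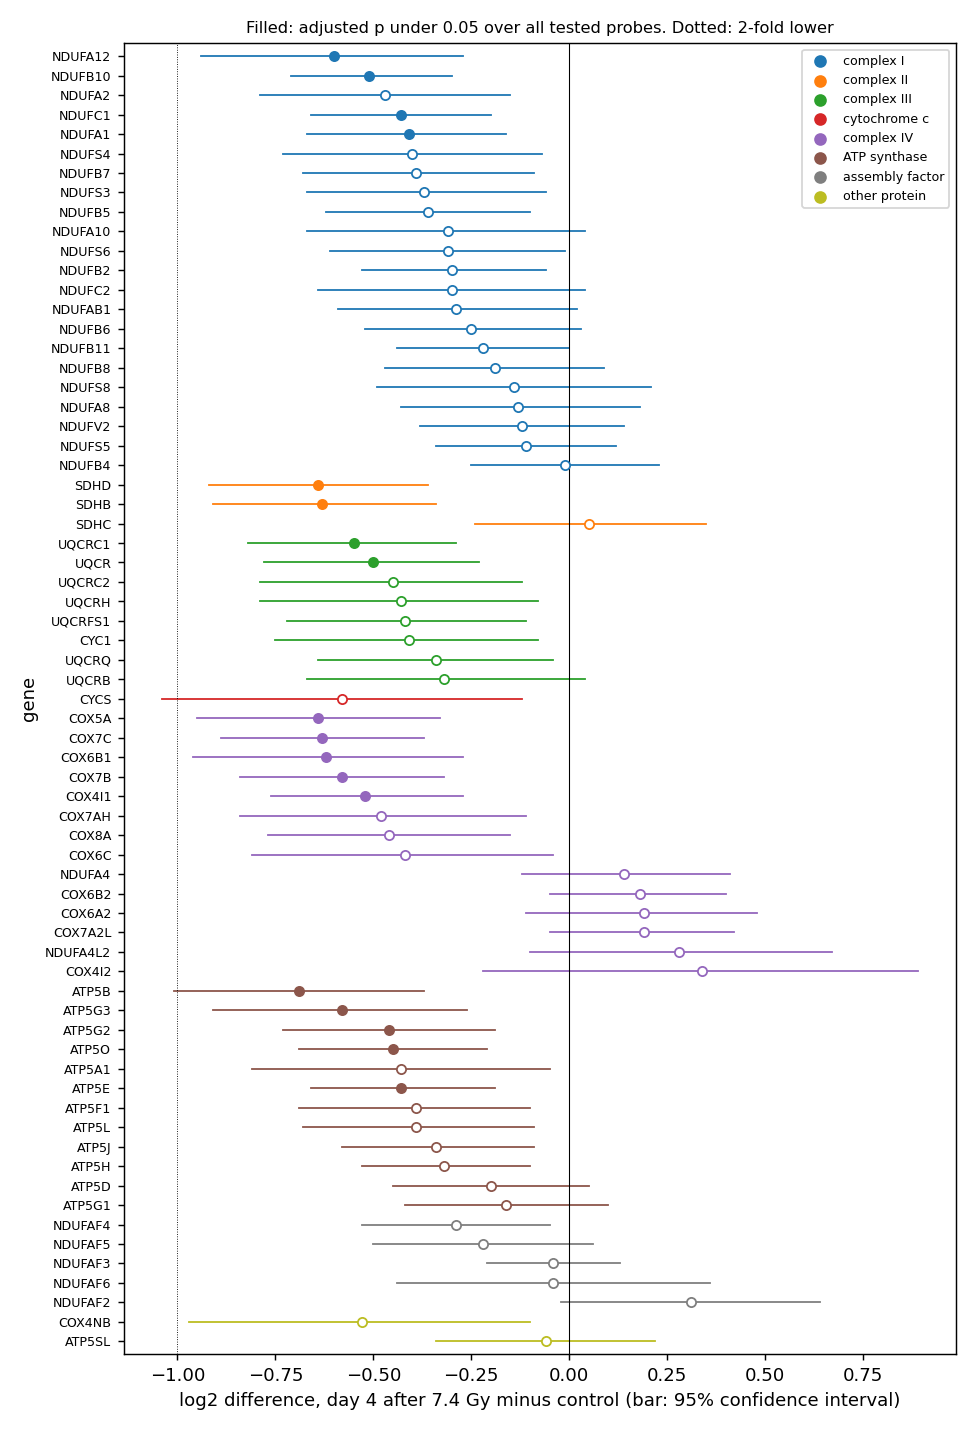
Difference from controls on day 4 after 7.4 Gy for 67 of the 68 tested genes, ordered by complex, on the log2 scale; bars are 95% confidence intervals and filled points passed at an adjusted p under 0.05. The filled points are all on the lower side, between -0.69 (ATP5B) and -0.41 (NDUFA1), and none reaches the dotted line of 2-fold.

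The 5 complex I assembly factors, which help build the complex but are not part of it, had a median of -0.04 and none passed. NDUFAF2 had a higher mean by 0.31, with levels of -0.73, -0.51, -0.51 and -0.50 in controls and 0.01, -0.47, -0.16 and -0.37 after 7.4 Gy. Its animals lay above the controls without overlap, and the test was not passed. The other probes of the set gave a similar picture to the brightest. Of 56 further tested probes of 42 genes, 50 were lower on day 4 after 7.4 Gy, 49 had the sign of the brightest probe, the median was -0.39 and 14 passed.

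These counts depended on the arrays and settings used. Without 1 animal of the irradiated group (replicate 1) 8 genes passed, and without other single animals of both groups 11 to 14. With array position as a covariate the median was -0.57, 5 genes passed and 3 of them (ATP5B -1.22, ATP5G3 -1.23, COX5A -1.16) were altered by 2-fold. With scan day as a covariate 9 genes passed (median -0.30), and on the arrays of the first scan day alone 2 did, ATP5B and COX7C (median -0.36). Quantile normalization left 9 (median -0.27), and the methods' t-test and a fit of the 2 groups alone left 5 each. NDUFA1 and ATP5G2 each lost their call in 16 of 25 settings. Against the control on the same slide, the 2 animals that shared a slide with a control had medians of -0.39 and -0.34, with 59 and 58 of 68 genes lower.

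On day 4 after 6.7 Gy the median again lay below 0 and was nearer to it. Of 68 genes 55 had a lower mean, the median was -0.21, and the median over all tested probes was -0.10. COX7C alone passed, lower by -0.61 (SE 0.13, adjusted p = 0.015), where 1.23% of all probes passed lower and 1.38% passed higher. The levels of COX7C were 3.52, 3.90, 4.01 and 4.05, all below the controls, but its second probe gave 0.45 (adjusted p = 0.41). No gene was altered by 2-fold, against 0.978% of all tested probes. At an unadjusted p under 0.05 there were 20 lower genes and 2 higher, with 13.7% of all probes lower, and 12 genes lay below all controls, against 7.71% of all probes. The largest fall by size was that of CYCS, above, which did not pass, and after COX7C came COX5A (-0.48, SE 0.15, adjusted p = 0.079) and COX6B1 (-0.48, SE 0.17, adjusted p = 0.11). The largest rises were those of COX7A2L (0.36, SE 0.11, adjusted p = 0.079), NDUFAF2 (0.33, adjusted p = 0.21) and ATP5SL (0.17, adjusted p = 0.44), and none of these passed.

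By complex, the medians on day 4 after 6.7 Gy were -0.14 for complex I, -0.32 for complex II, -0.20 for complex III, -0.33 for complex IV and -0.24 for ATP synthase, with 0.01 for the assembly factors. All 8 genes of complex III and all 12 of ATP synthase again had a lower mean. In complex I 17 of 23 were lower, and NDUFS3, NDUFS8 and NDUFV2 had differences of 0.04, 0.08 and 0.09. ATP5B stood at 6.61, 6.43, 6.92 and 7.19 and COX6B1 at 6.77, 5.88, 6.37 and 6.34, so that for each gene 1 animal reached into the control range. Within slides the 2 animals that could be compared with a control had medians of -0.11 and 0, and on the first scan day alone the median was -0.09 and no gene passed. Since COX7C alone passed at this dose, the set without SDHD and COX7C, whose probes may report other loci, necessarily held no passing gene.

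The doses themselves were compared on day 4. The median difference, 7.4 Gy minus 6.7 Gy, was -0.14, with 56 of 68 genes lower at the higher dose, and 0 passed. Over all tested probes 0% passed, the median was 0.03 (-0.05 above a level of 3, with 1905 of 3029 lower) and 5.54% had an unadjusted p under 0.05, while 7 respiratory chain genes did (5 lower, 2 higher). The methods' t-test at an unadjusted p under 0.05 counted 3, and no share of all probes is given for that test. The largest falls were NDUFS3 (-0.40), a core subunit of complex I, ATP5B (-0.34) and ATP5G3 (-0.31), and the largest rises were COX4I2 (0.41), COX6B2 (0.38) and COX6A2 (0.37), with adjusted p-values of 0.88 or higher. Interval bounds show what remains possible: for ATP5G1 the 95% interval ran from -0.38 to 0.15 and for NDUFS3 from -0.70 to -0.10. Whether the doses act alike on day 4 was therefore not settled gene by gene.

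By day 7 the set was no longer lower. After 6.7 Gy 56 of 68 genes had a higher mean than controls, with a median of 0.11 (all tested probes 0, probes above a level of 3 0.09). After 7.4 Gy 38 were higher and 30 lower, with a median of 0.01. No respiratory chain gene passed at either dose, with smallest adjusted p-values of 0.29 and 0.14. Of all probes 0.449% and 0.978% passed in either direction, and 0.235% and 0.568% were altered by 2-fold. At an unadjusted limma p under 0.05 there were 10 genes after 6.7 Gy (9 higher) and 4 after 7.4 Gy (3 higher), with 9.36% and 13.4% of all probes. The methods' t-test counted 16 and 10, but those shares are of the limma test and cannot be set beside these counts. Among the largest rises were NDUFS8 (0.38, adjusted p = 0.48) and NDUFB8 (0.36) after 6.7 Gy, both of complex I, and NDUFS8 (0.44, adjusted p = 0.26), UQCRB (0.42) and COX7A2L (0.33) after 7.4 Gy. At both doses CYCS, the assembly factor NDUFAF5 and COX7AH had the lowest differences, with CYCS at -0.38 (adjusted p = 0.64) and -0.72 (adjusted p = 0.14).

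The doses did not separate on day 7 either. The median difference of the higher from the lower dose was -0.08, 56 of 68 genes were lower, and 0 passed, with 0% of all probes. Probes with a mean level above 3 had a like tally, with 2207 of 3029 lower and a median of -0.09. No respiratory chain gene had an unadjusted limma p under 0.05, against 4.02% of all probes. The methods' t-test counted 5 such genes, with no share of all probes for that test to set beside them. The widest differences were ATP5A1 (-0.38, 95% interval -0.76 to 0) and CYCS (-0.33).

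The days were compared directly at each dose, using the same day-4 animals as above, so these values are not independent of the comparisons with controls. From day 4 to day 7 after 7.4 Gy 59 of 68 genes were higher, with a median of 0.36 against 0.01 for all tested probes. At this dose 16 genes rose past the test and 0 fell, where 2.32% of all probes passed higher and 1.48% lower. In 38 genes every day-7 animal lay above every day-4 animal, which held for 6.55% of all probes. After 6.7 Gy 62 of 68 were higher, with a median of 0.32 against 0.07, and 7 rose past the test. Of all probes 0.717% passed higher and 0.31% lower, and in 21 genes the groups were fully separated, against 7.46% of probes. Among the 3029 probes with a mean level above 3 the median rise was 0.16 after 6.7 Gy and 0.11 after 7.4 Gy. Of these bright probes 61 passed higher and 404 were fully separated upward after 6.7 Gy, and 174 and 398 after 7.4 Gy.

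All 5 complexes had rising members. In complex I NDUFB10 rose by 0.62 (SE 0.10, adjusted p = 0.0028) after 7.4 Gy and by 0.42 (SE 0.10, adjusted p = 0.048) after 6.7 Gy. Its day-7 levels were 6.30, 6.32, 6.33 and 6.28 after 7.4 Gy and 6.25, 6.21, 6.35 and 6.23 after 6.7 Gy, within the range of the controls. NDUFS3 rose by 0.58 (adjusted p = 0.031) after 7.4 Gy, from 4.56, 4.69, 4.89 and 4.70 to 5.15, 5.44, 5.37 and 5.2. NDUFA1 rose by 0.55 (adjusted p = 0.037) after 6.7 Gy. In complex II SDHB rose by 0.70 (adjusted p = 0.0094) after 7.4 Gy, to 4.39, 4.42, 4.42 and 4.44. These 4 animals lay within 0.05 of each other, and within the controls, but a second SDHB probe gave 0.19 (adjusted p = 0.9). SDHD rose by 0.66 (adjusted p = 0.011) after 7.4 Gy and by 0.57 (adjusted p = 0.046) after 6.7 Gy.

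In complex III UQCRC1 rose by 0.77 (SE 0.13, adjusted p = 0.0038) after 7.4 Gy and by 0.66 (SE 0.13, adjusted p = 0.023) after 6.7 Gy. Its day-7 levels were 6.58, 6.49, 6.61 and 6.52 after 7.4 Gy and 6.64, 6.62, 6.70 and 6.52 after 6.7 Gy, and all 8 lay above 3 of the 4 controls, 5 of them above the highest (6.57). Its second probe gave 0.50 (adjusted p = 0.068) and 0.48 (adjusted p = 0.12) between the days, without passing. UQCRB, a ubiquinone-binding subunit, rose by 0.74 (adjusted p = 0.022; second probe 0.72, adjusted p = 0.18), CYC1 by 0.64 (adjusted p = 0.033) and UQCR by 0.50 (adjusted p = 0.039), all after 7.4 Gy. In complex IV COX4I1 rose by 0.74 (SE 0.12, adjusted p = 0.0023) and 0.71 (SE 0.12, adjusted p = 0.009) at the higher and lower dose. It reached 7.21, 7.68, 7.64 and 7.51 and 7.53, 7.53, 7.81 and 7.52, of which 7 lay above the highest control (7.47). That position against the controls belongs to the brightest probe, since the other COX4I1 probes differed from controls by 0.01 and -0.39 on day 7 after 7.4 Gy, and rose from day 4 by 0.67 (adjusted p = 0.033) and 0.27 (adjusted p = 0.43). COX5A rose by 0.58 and 0.63, COX7C by 0.64 and 0.60 (second probe 0.40, adjusted p = 0.55, and -0.01, adjusted p = 0.99), and after 7.4 Gy also COX8A by 0.73, COX6B1 by 0.64 and COX7B by 0.51. In ATP synthase ATP5B rose by 0.81 (SE 0.15, adjusted p = 0.0085), the largest rise of the set, to 7.00, 7.13, 7.48 and 7.40, and ATP5G3 by 0.64 (adjusted p = 0.03). After 6.7 Gy no ATP synthase gene passed, although all 12 were higher (median 0.39). The 56 further probes gave 52 higher, 23 of them past the test, with a median of 0.45 after 7.4 Gy.

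**Figure D3:**
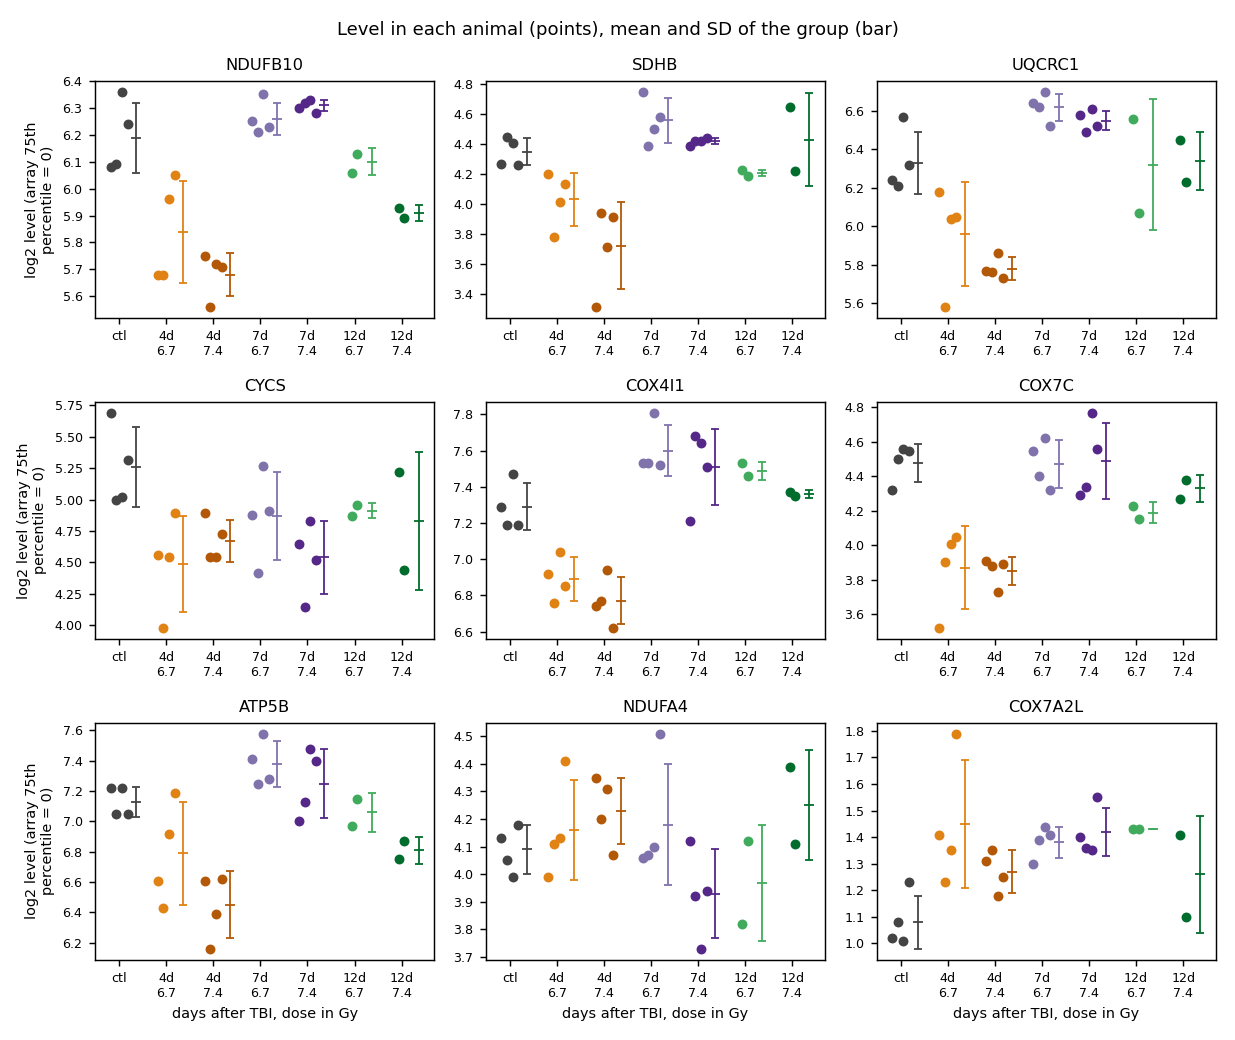
Log2 level (0 is the 75th percentile of the array) of 9 genes in each animal, by group, with the mean and SD of the group at the right of its points (n = 4, and 2 on day 12). In NDUFB10, SDHB, UQCRC1, COX4I1, COX7C and ATP5B the 4 animals of day 4 after 7.4 Gy lie below all 4 controls and below all day-7 animals, while CYCS on day 7 lies below all controls after 7.4 Gy and overlaps them after 6.7 Gy, and COX7A2L and NDUFA4 do not have a lower mean than controls on day 4.

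Some members went against the set between days 4 and 7. After 7.4 Gy COX4I2 (-0.51), NDUFAF2 (-0.34), NDUFA4 (-0.30) and COX6B2 (-0.29) were lower on day 7 than on day 4, with adjusted p-values of 0.31, 0.25, 0.2 and 0.14. CYCS differed by -0.14 after 7.4 Gy (adjusted p = 0.78) and 0.38 after 6.7 Gy (adjusted p = 0.35). Its day-7 levels were 4.65, 4.15, 4.83 and 4.52 after 7.4 Gy, all below the lowest control, and 4.88, 4.42, 5.27 and 4.91 after 6.7 Gy, which overlapped the controls. Over the 6 irradiated groups CYCS was lower by means of -0.76, -0.58, -0.38, -0.72, -0.34 and -0.42, in the order of days with the lower dose first, and passed in none. COX7A2L was higher by means of 0.36, 0.19, 0.30, 0.33, 0.34 and 0.17 in the same order, with levels of 1.02, 1.08, 1.01 and 1.23 in controls and 1.40, 1.36, 1.35 and 1.55 on day 7 after 7.4 Gy. It too passed in none of the 6, and its second, dimmer probe gave 0.06 in that group.

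Without single animals the count between the days ran from 1 to 9 after 6.7 Gy and from 8 to 17 after 7.4 Gy. On the first scan day alone 0 genes passed between days 4 and 7 at either dose, with 2 animals in 3 of these 4 groups. With the methods' t-test 0 passed after 6.7 Gy and 2 after 7.4 Gy (NDUFB10 and UQCRC1), and quantile normalization left 0 after 6.7 Gy.

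Day 12 rested on 2 animals at each dose. After 6.7 Gy 48 of 68 genes had a lower mean than controls (median -0.10, all tested probes 0.06), and after 7.4 Gy 43 did (median -0.06, all tested probes -0.01). No gene passed, with smallest adjusted p-values of 0.44 and 0.28. Of all tested probes 0.155% and 0.0499% passed and 0.108% and 0.0443% were altered. At an unadjusted limma p under 0.05 there were 7 genes after 6.7 Gy (6 lower) and 5 after 7.4 Gy (4 lower), with 8.98% and 8.13% of all probes. The methods' t-test counted 8 and 9, again with no share of all probes for that test. The largest falls after 6.7 Gy were NDUFAF6 (-0.48, second probe -0.06), COX5A (-0.47) and NDUFA12 (-0.46). COX5A stood at 4.52 and 4.75, below the 4 controls (5.01 to 5.19). The largest rises at this dose were COX7A2L (0.34), COX4NB (0.31) and COX4I1 (0.21, other probes -0.11 and -0.13).

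After 7.4 Gy the largest falls on day 12 were ATP5A1 (-0.73, SE 0.22, adjusted p = 0.28), NDUFB5 (-0.49, SE 0.15, adjusted p = 0.28) and CYCS (-0.42, adjusted p = 0.76), and the largest rises were SDHC (0.44, adjusted p = 0.47), COX6A2 (0.32) and ATP5G1 (0.24). SDHC stood at 1.18 and 1.31, above the 4 controls, but its other probes gave 0.01 and 0.18. ATP5A1 stood at 6.23 and 5.16, against 6.28 to 6.56 in controls, so that 1 animal lay far lower than the other. Without the higher of these animals ATP5A1 was altered (-1.26, adjusted p = 0.036), the lone remaining animal being assumed to vary like the other groups. Both animals of this group were scanned on the second day and every control on the first, so scan day and group cannot be told apart there without the other groups. By complex, the day-12 medians ran from -0.17 (ATP synthase) to 0.02 (complex IV) after 6.7 Gy and from -0.20 (ATP synthase) to 0.09 (complex II) after 7.4 Gy, with -0.28 and -0.19 for the assembly factors.

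**Figure D4:**
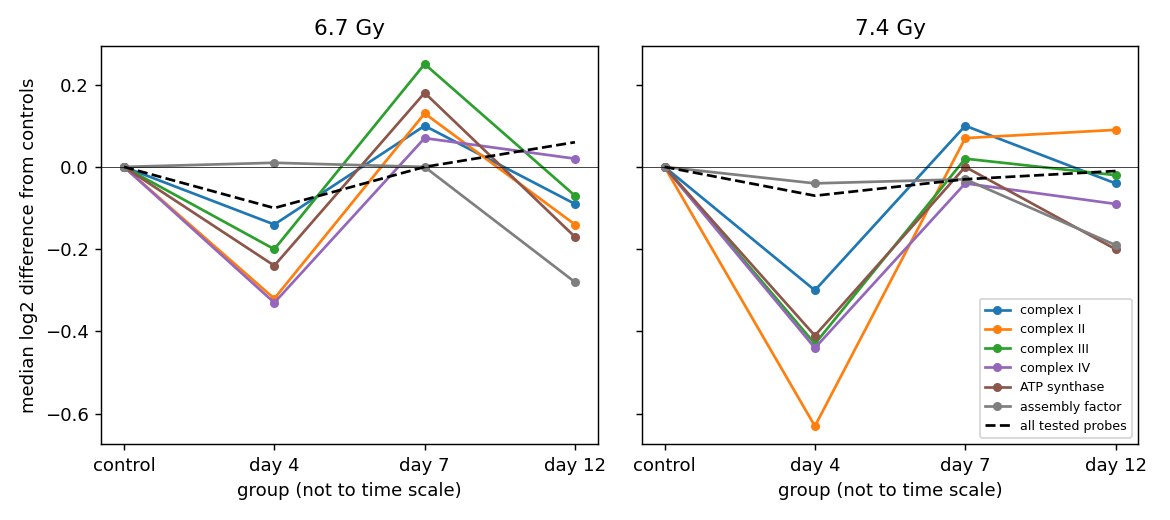
Median log2 difference from controls over the tested genes of each complex, for each day and dose, with all 36108 tested probes as the dashed line; days are evenly spaced and not to scale, and no error is drawn because genes are not replicates. At 7.4 Gy the complexes lie between -0.63 and -0.30 on day 4 and between -0.04 and 0.10 on day 7, and the assembly factors lie near the dashed line on both days.

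Other genes of mitochondrial energy metabolism were set beside the chain, in lists chosen with earlier results of these data known. The tricarboxylic acid cycle and pyruvate dehydrogenase, which supply the electrons, had a median of -0.31 over 13 genes on day 4 after 7.4 Gy. Of these 12 were lower and 4 passed, among them SUCLG2 (-0.98, adjusted p = 0.0035), SUCLG1 (-0.55) and DLST (-0.65), of the succinyl-CoA steps. After 6.7 Gy the median was -0.16 and 2 passed, SUCLG2 (-0.88) and DLST (-0.52). On day 7 the medians were 0.17 and 0.11. The subunits encoded by mitochondrial DNA, listed as 12 symbols of 11 genes because MT-ND1 is a second ND1 entry from a predicted transcript, had medians of -0.34 and -0.37 on day 4 after 6.7 and 7.4 Gy. On day 4 after 7.4 Gy COX1, the catalytic core of complex IV, fell by 1.2 on the log2 scale (SE 0.26, adjusted p = 0.012) and ND4L by 0.83, while ND6 rose by 1.5 (SE 0.38, adjusted p = 0.025). ND6 is the one subunit of this group that is encoded on the light strand of mitochondrial DNA. After 6.7 Gy only ND4L passed (-0.87, adjusted p = 0.016).

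The genes with the symbol prefixes MRPL and MRPS, listed as mitochondrial ribosomal proteins by symbol alone, did not share the direction. Of 64 genes 61 had a higher mean on day 4 after 6.7 Gy (median 0.28) and 53 after 7.4 Gy (median 0.13). MRPL55 passed at the lower dose (0.56, adjusted p = 0.021). At the higher dose MRPS36 passed (-0.67, adjusted p = 0.021), a gene placed in this list by its symbol only. The 19 further assembly factors of the complexes had medians of 0.05 and -0.10, and none passed against controls on day 4. Among 11 regulators of mitochondrial biogenesis the medians were 0.10 and 0.15 and none passed. The coactivator PPARGC1A differed by -0.62 (adjusted p = 0.2) and -0.43 (adjusted p = 0.38), and the mitochondrial DNA transcription factor TFAM by 0.38 (adjusted p = 0.13) and 0.15 (adjusted p = 0.57). Of 12 carriers and the ATP synthase inhibitor, the ADP/ATP carrier SLC25A5 passed after 7.4 Gy (-0.66, adjusted p = 0.024). Glycolysis had medians of -0.02 and -0.17 over 15 genes. After 7.4 Gy the muscle phosphofructokinase PFKM rose by 0.92 (adjusted p = 0.021) while ALDOC fell by 0.86 and TPI1 by 0.40, and after 6.7 Gy LDHB rose by 1.07 (adjusted p = 0.028).

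**Figure D5:**
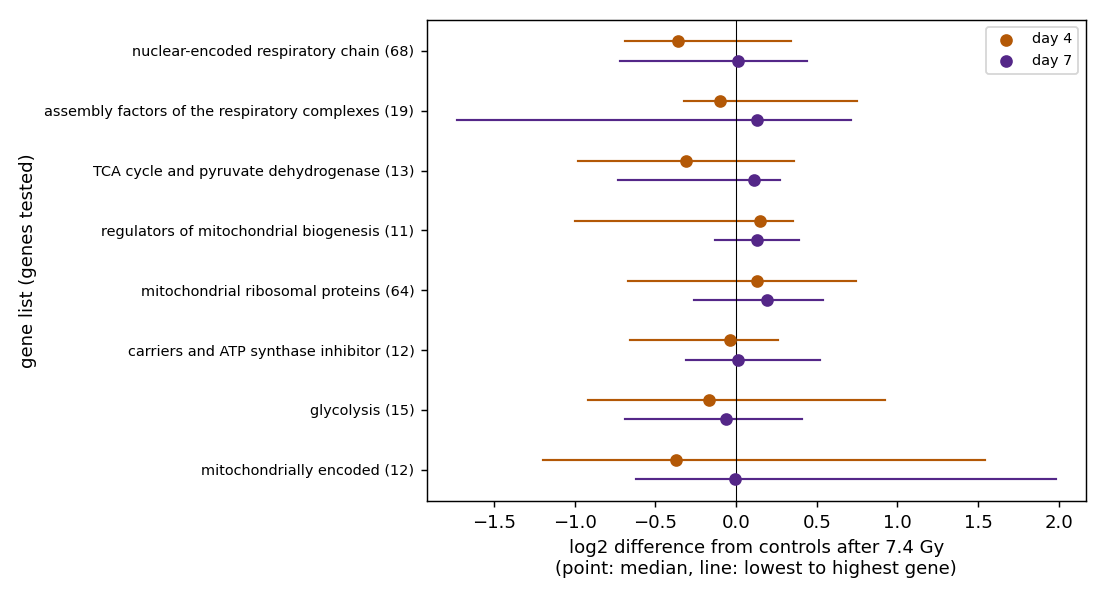
Log2 difference from controls after 7.4 Gy for the respiratory chain genes and 7 related lists, on days 4 and 7; points are medians over the tested genes of a list (number in parentheses) and lines run from the lowest to the highest gene. On day 4 the nuclear-encoded chain (-0.36), the mitochondrially encoded subunits (-0.37) and the tricarboxylic acid cycle (-0.31) have the lowest medians, and the mitochondrial ribosomal proteins (0.13) lie on the other side of 0.

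Markers of the cell types of the gut wall also differed from controls on day 4. On that day 9 of 10 epithelial markers were lower after 6.7 Gy (median -0.56, 4 passed), and 6 of the 10 passed lower after 7.4 Gy (median -0.60). Villin, VIL1, an enterocyte brush border protein, differed by -1.32 and -1.27 and KRT20 by -1.05 and -0.86. The summed linear level of the 10 epithelial markers was 397 to 581 in controls, 270 to 383 and 301 to 353 on day 4 after 6.7 and 7.4 Gy, and 452 to 543 and 412 to 474 on day 7. None of the 10 fell to background on any array of these groups. The 7 smooth muscle markers were all higher on day 4, with medians of 0.49 and 0.88, none passed, and their sum ran from 108 to 630 in controls, 363 to 630 after 6.7 Gy and 494 to 695 after 7.4 Gy. The 6 fibroblast markers had medians of 0.41 and 0.91, with 3 passing after 7.4 Gy, and the 7 neuron and glia markers 0.67 and 0.93, with 3 passing. After 7.4 Gy all 8 endothelial markers were higher (median 0.42, 2 passed). All 6 macrophage markers also had a higher mean at that dose (median 0.51), and 1 passed, CD14 (1.14, adjusted p = 0.011). After 6.7 Gy 5 of the 6 macrophage markers did (median 0.25), and none passed. The 4 tested B cell markers had medians of -1.90 and -1.94, with 2 passing lower at each dose, and the 8 plasma cell markers -0.67 and -0.91, none passing. The 8 T cell markers had medians of -0.49 and -0.28, none passing, and the 3 erythroid markers -0.30 and -0.19. Of these the beta globin gene HBB passed, with differences of -6.11 (adjusted p = 1.2e-05) and -5.88 (adjusted p = 1.7e-05) on day 4 and -6.86 and -7.57 on day 7 after 6.7 and 7.4 Gy. On day 7 the epithelial medians were 0 and -0.14, while all 7 smooth muscle markers still had a higher mean (0.35 and 0.48), as they had on day 12 (0.53 and 0.25). The day-7 medians of the fibroblast markers were -0.11 and 0.55 and those of neuron and glia 0.07 and 0.54. No marker of these 4 lists passed on day 7. Other lists had passing markers on day 7 after 7.4 Gy, with 4 of 8 T cell markers passing lower (median -0.85). In the same group 2 B cell markers (median -1.51) and 2 plasma cell markers (median -1.41) passed lower. The macrophage marker CSF1R was lower at both doses (-0.97 and -0.77). The 6 macrophage markers together had day-7 medians of -0.17 and 0.01, with 2 and 3 of them higher. Of the 6 ileal markers 5 were lower on day 4 at both doses (medians -0.53 and -0.28). The 1 that passed was VIL1, already counted among the 10 epithelial markers, while FABP6 and SLC10A2 did not pass. Their summed level was 467 to 613 in controls, 150 to 502 on day 4 after 6.7 Gy and 427 to 497 after 7.4 Gy. The part of these shifts in the respiratory chain values was not tested.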

How the data were processed

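Ileum from 24 animals was hybridised to one-colour Agilent arrays. The authors extracted spot values with Feature Extraction 11.0.1.1 and deposited the processed intensity of each spot (background-subtracted, not normalized) together with a normalized log2 table, which the authors scaled to the 75th percentile in GeneSpring GX. That table matched log2 intensities so scaled and then centred on the median of each probe (largest difference 0.00207). Here spots of 1 probe were averaged, without outlier-flagged spots where another remained, log2 was taken and the 75th percentile of the 43603 non-control probes was subtracted. A probe was tested if, in 1 group or more, no array left it short of the scanner's background test, and these 36108 probes were fitted with limma 3.58.1 (R 4.3.3), with a mean for each of 7 groups and no covariate, over all arrays. P-values are two-sided and were adjusted by the Benjamini-Hochberg method within a comparison. The steps were tested on simulated data. The number of arrays limits the precision.

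The members and lists were chosen with earlier results of these data known. Gene symbols were those of the deposited table, with newer names from RefSeq (T2T-MMU8v2.0). Named were the 5 largest rises and falls among passing genes (or the 3 largest of each where fewer than 3 passed), the isoform sets and the core subunits. Values of some genes that this rule names are not reported here. Other passing genes and those named as exceptions were chosen after their values were seen. Day 12 follows the sample titles, since a protocol text gives another day. The normexp alternative used spot medians, because spot means were not in the files. No 2 arrays were duplicates (highest correlation 0.9905).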

Additional observations from a re-analysis of the deposited data

Results flagged for a closer look

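Some respiratory chain genes differed between days 4 and 7 at the same dose, and each that passed this direct limma test at an adjusted p under 0.05 is given again by its log2 difference, day 7 minus day 4. After 6.7 Gy these were COX4I1 0.71, UQCRC1 0.66, COX5A 0.63, COX7C 0.60, SDHD 0.57, NDUFA1 0.55 and NDUFB10 0.42. After 7.4 Gy they were ATP5B 0.81, UQCRC1 0.77, COX4I1 0.74, UQCRB 0.74, COX8A 0.73, SDHB 0.70, SDHD 0.66, ATP5G3 0.64, COX6B1 0.64, COX7C 0.64, CYC1 0.64, NDUFB10 0.62, COX5A 0.58, NDUFS3 0.58, COX7B 0.51 and UQCR 0.50.

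In a chosen subset of the genes and in the median of the set, 130 groups of 4 were examined for 1 animal far from the other 3, and 12 were found, where chance gives about 1 in 20. Replicate 1 of day 4 after 7.4 Gy was low for SDHD (2.78, others 3.11 to 3.16), SDHC (0.69, others 0.89 to 0.93) and COX7AH (3.70, others 3.89 to 3.91). In the same group replicate 3 was low for COX7C (3.73, others 3.88 to 3.91) and replicate 4 for ATP5G1 (5.31, others 5.57 to 5.60). On day 7 after 6.7 Gy replicate 3 was high for COX4I1 (7.81, others 7.52 to 7.53), replicate 1 for COX7AH (4.41, others 4.13 to 4.17) and replicate 4 for NDUFA4 (4.51, others 4.06 to 4.10), and replicate 2 was low for NDUFB4 (4.30, others 4.66 to 4.68). Replicate 3 of day 7 after 7.4 Gy was low for NDUFA12 (3.72, others 4.13 to 4.18). Control replicate 1 was low for COX4I2 (-5.62, others -4.94 to -4.84) and NDUFAF2 (-0.73, others -0.51 to -0.50).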

How the results depend on the processing

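None of the 42 passing calls on genes changed direction under the alternatives run on it (array position could be run on 19, and leaving out 1 animal touched 7 to 34); genes that did not pass were not recomputed one by one. The authors' normalized table lost no call. Below, counts are genes passing and medians are log2 differences from controls unless 2 days are named. With quantile normalization day 4 after 7.4 Gy had 9 genes and a median of -0.27, days 7 and 4 differed in 0 genes after 6.7 Gy and by a median of 0.26 after 7.4 Gy, and the dose median on day 7 was 0. Scaling to the array median gave -0.16 on day 12 after 6.7 Gy and 2 genes between days after 6.7 Gy. For day 4 after 6.7 Gy, where 1 gene passed, normexp, probes above background on all arrays, and slide as a block gave 2. The mean over probes and trended robust moderation gave 3 there, and array position and the replicate block 4. The methods' t-test, the 2 groups alone and the first scan day gave 0. The set without SDHD and COX7C had 0 of necessity, since COX7C was the gene that passed. The mean over probes moved the day-12 median after 6.7 Gy to -0.07, and no filter left 3 genes between days after 6.7 Gy. For day 4 after 7.4 Gy array position gave 5 genes, 3 altered and a median of -0.57, the t-test and the 2 groups alone 5, scan day as a covariate 9 and -0.30, and the first scan day 2. Between days after 6.7 and 7.4 Gy the t-test gave 0 and 2, the 2 groups alone 0 and 3 and the first scan day 0 and 0, and scan day as a covariate left 1 after 6.7 Gy. Scan day moved the day-12 median after 7.4 Gy to 0.02. On the first scan day the medians were -0.09 on day 4 after 6.7 Gy and 0.07 on day 7 after 7.4 Gy, and within slides they were -0.07 and 0.12. The replicate block gave 18 genes on day 4 after 7.4 Gy and lost 4 of the 42 calls; the animals shared only a number (mean correlation of deviations of same-numbered animals 0.03, 16 of 62 pairs over 0.1).

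Leaving out 1 animal at a time, day 4 after 6.7 Gy ran from 1 to 4 genes (4, 3 and 2 without its replicates 1, 3 and 4) and medians from -0.25 to -0.14. Day 4 after 7.4 Gy ran from 8 (without its replicate 1; 11 without its replicate 4 or control replicate 1 or 2) to 14, and from -0.38 to -0.34. Between days the range was 1 (without replicate 2 of day 4 or replicate 1 or 3 of day 7; 3 without replicate 2 or 4 of day 7) to 9 after 6.7 Gy, 0.24 to 0.38, and 8 (without replicate 1 of day 4; 9 without replicate 4 of day 4 or 3 of day 7; 10 without replicate 2 of day 4 or 2 or 4 of day 7) to 17 after 7.4 Gy, 0.33 to 0.39. Day 7 stayed at 0 genes, 0.09 to 0.17 and 0 to 0.07, and day 12 after 6.7 Gy at 0, -0.12 to -0.08. Day 12 after 7.4 Gy ran from 0 to 1, passing and altered (1 without its replicate 1), and -0.10 to -0.04. The doses stayed at 0 genes, with -0.23 to -0.10 on day 4 and -0.13 to -0.04 on day 7. The cause of these shifts was not tested.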
